A study of Mus musculus with 27 samples.

Results

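RNA from tumor-bearing colon segments of mice that had received FOLFOX together with a probiotic complex (CAC_FP, 5 libraries) was compared with RNA from segments of tumor-bearing mice that had received neither (CAC, 5 libraries). These are 10 of the 27 libraries sequenced. The comparison covers every gene that reached 1 FPKM (fragments per kilobase of the gene, scaled to sequencing depth) in 5 or more of the 27 libraries, which holds for 15080 of the 39971 genes in the deposited table.

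All of these animals were wild-type BALB/c mice in which azoxymethane, a carcinogen, and dextran sulfate sodium, an irritant of the colon (AOM/DSS), had produced inflammation-associated neoplasia. CAC_FP mice received FOLFOX by intraperitoneal injection and the probiotic complex intragastrically, and CAC mice received saline by both routes. A group with FOLFOX intraperitoneally and saline intragastrically (CAC_F, 5 libraries) is used at the end. Tissue was taken 1 week after chemotherapy began, and the labels give 1 batch for all libraries and no sex, age or time of day. No library from mice given the probiotic complex alone was analysed here, so what FOLFOX and the probiotic complex each contribute to CAC_FP against CAC cannot be told apart in that comparison. The sources do not say that each library came from a different mouse, and p-values measure the spread between libraries.

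FOLFOX combines folinic acid, fluorouracil and oxaliplatin. Fluorouracil blocks thymidylate synthase and is built into RNA and DNA, and oxaliplatin crosslinks DNA, so both interfere with replication in dividing cells and stabilise the tumor suppressor p53. The colon epithelium is renewed from dividing crypt cells that mature into absorptive, goblet, tuft and enteroendocrine cells, and damage to this layer brings signals for repair and for recruiting immune cells.

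Total counts were 63276601 to 72343614 in CAC_FP libraries and 56687812 to 71260166 in CAC libraries, and the share of counts from mitochondrial genes was 4.72% to 6.51% in CAC_FP and 5.44% to 11.7% in CAC. On the first principal component of these 10 libraries, which held 45.5% of the variance, CAC_FP replicate 4 lay at 3.50, against 34.0 to 59.9 for the other CAC_FP libraries, and CAC replicate 2 lay at -14.6, against -48.0 to -38.0 for the other CAC libraries. CAC replicate 2 also stood apart in position genes: Hoxb13, a gene of the most distal hindgut, was at 96.9 CPM (counts-per-million) there, against 0 to 0.353 CPM in all CAC_FP libraries. The colon epithelial markers Epcam, Cdx1, Cdx2, Krt20, Car1 and Muc2 were present in every library, with Epcam at 1039 to 1320 CPM in CAC_FP and 1044 to 1283 CPM in CAC. Smooth muscle transcripts, which mark the muscle layers of the colon wall, were lower in CAC_FP: 13 of 15 listed genes were called lower and none higher, with a summed level of 1456 to 4445 CPM in CAC_FP and 4227 to 19150 CPM in CAC. That count was 8 without CAC_FP replicate 3 and 7 without CAC replicate 5. In such bulk tissue fewer cells of a type and less RNA per cell cannot be told apart.

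Of the 15080 genes, 2802 (18.6%) differed between CAC_FP and CAC at an adjusted p below 0.05 (edgeR quasi-likelihood test, Benjamini-Hochberg adjustment, as for every adjusted p given below). Of these, 1460 (9.68%) were higher in CAC_FP and 1342 (8.9%) lower, and the change was at least 2-fold for 423 of the higher and 520 of the lower genes. The 2 groups of 5 libraries did not overlap for 1524 genes (10.1%), 782 higher (5.19%) and 742 lower (4.92%). The median log2 fold change over all genes was -0.03. The fit took the spread of each gene from all 27 libraries, and with only the CAC_FP and CAC libraries fitted 2203 genes were called. The count of called genes was 1602 without CAC_FP replicate 2, 1515 without CAC_FP replicate 3, 1584 without CAC replicate 4 and 1731 without CAC replicate 5. With the average log2 level of the smooth muscle genes as a covariate it was 1575, of which 962 were among the 2802. That level itself differed between the groups, at 6.00 to 7.58 in CAC_FP and 7.54 to 9.57 in CAC. Adjusting for it therefore also takes away part of the difference between the groups. For calls lost with this covariate, muscle content and treatment cannot be told apart. Gene lists are described below by how many tested members were called in each direction, beside the 9.68% and 8.9% of all genes. Some lists share members, such as Bax, Retnlb and Ang4, so their counts are not independent. Where leaving out 1 library, or the smooth muscle covariate, moved a count of 2 or more by over 1.5 times, the moved count is given beside it; counts of 0 or 1 can change by 1 or 2 with a single library.

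**Figure D1:**
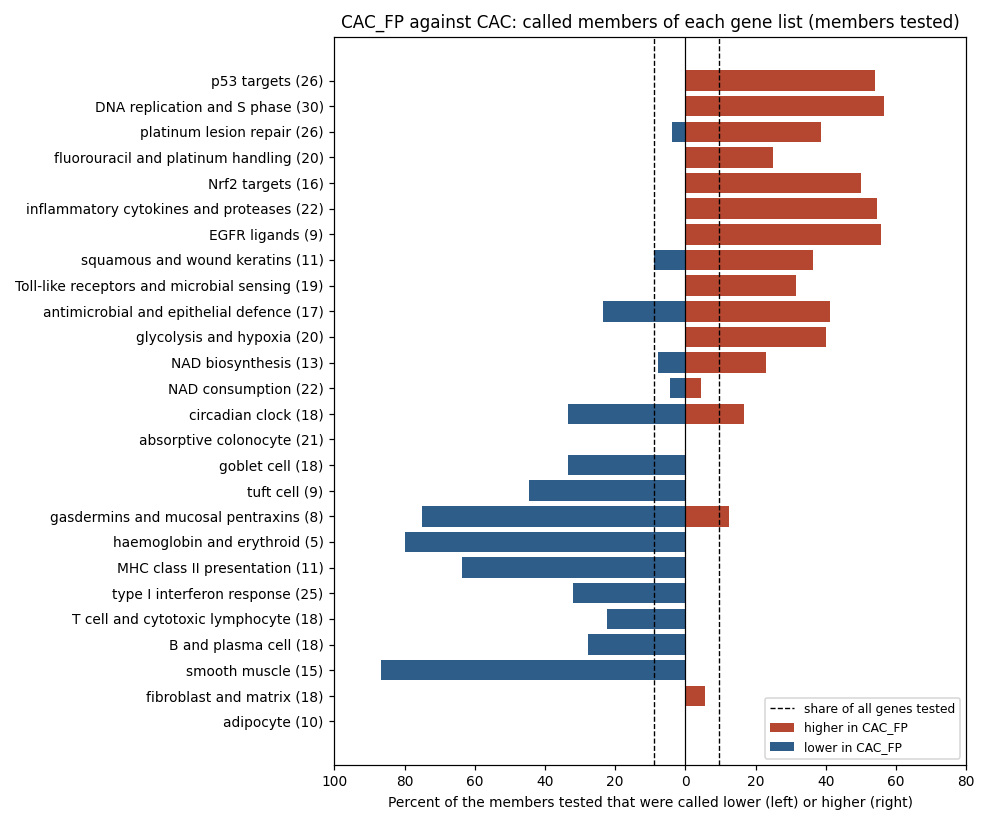
Share of the tested members of 26 gene lists called higher (right of 0) and lower (left of 0) in CAC_FP than in CAC, in percent, at an adjusted p below 0.05; dashed lines mark the shares of all 15080 genes, 9.68% higher and 8.9% lower. S phase genes, p53 targets and inflammatory cytokines lie to the right of their line, and smooth muscle, MHC class II and gasdermin genes to the left of theirs.

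Targets of p53 were higher in CAC_FP. Of 26 tested, 14 were called higher and none lower, with a median log2 fold change of 0.62. Ccng1, a cyclin that p53 induces, had 406, 389, 228, 224 and 254 CPM in CAC_FP libraries, against 135, 135, 129, 157 and 119 CPM in CAC libraries. Every CAC_FP library was above every CAC library. The log2 fold change was 1.15 ± 0.19 (SE from the fit of all 27 libraries, with 5 in each group compared, adjusted p = 0.000806). Plk3, a stress-activated polo-like kinase, had 27.1 to 37.6 CPM in CAC_FP and 13.8 to 18.5 CPM in CAC, again without overlap, with a log2 fold change of 1.11 ± 0.14 (adjusted p = 0.000105). Bax, which opens the outer mitochondrial membrane in apoptosis, rose by 0.88 ± 0.17 on the log2 scale (adjusted p = 0.00225), and the nuclease Aen by 0.79 ± 0.17 (adjusted p = 0.00384). Gdf15, a secreted stress cytokine, was low in both groups, at 2.88 to 12.5 CPM in CAC_FP and 0.826 to 3.61 CPM in CAC, with a log2 fold change of 1.91 ± 0.52 (adjusted p = 0.0150).

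The cell cycle inhibitor Cdkn1a (p21), the best known p53 target, had 222, 170, 147, 124 and 127 CPM in CAC_FP, against 78.8, 83.4, 116, 106 and 95.2 CPM in CAC. The groups did not overlap, and the log2 fold change of 0.72 ± 0.23 passed (adjusted p = 0.0294). That call was lost without CAC_FP replicate 1 or 2 or CAC replicate 1 or 5, and the adjusted p over all alternatives was 0.0112 to 0.0817. Mdm2, the ligase that degrades p53, was higher by 0.42 ± 0.13 (adjusted p = 0.0256), a call also lost without any of 4 libraries (CAC_FP replicates 1 and 2, CAC replicates 1 and 3). In the BCL2 family, which sets the threshold of apoptosis, 4 of 19 members were called higher (Bax, Bcl2l15, Bak1 and Bok) and none lower, and 2 without CAC_FP replicate 3 or CAC replicate 4. Bak1, the second pore-forming member, had 99.1 to 171 CPM in CAC_FP and 53.3 to 98.8 CPM in CAC.

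**Figure D2:**
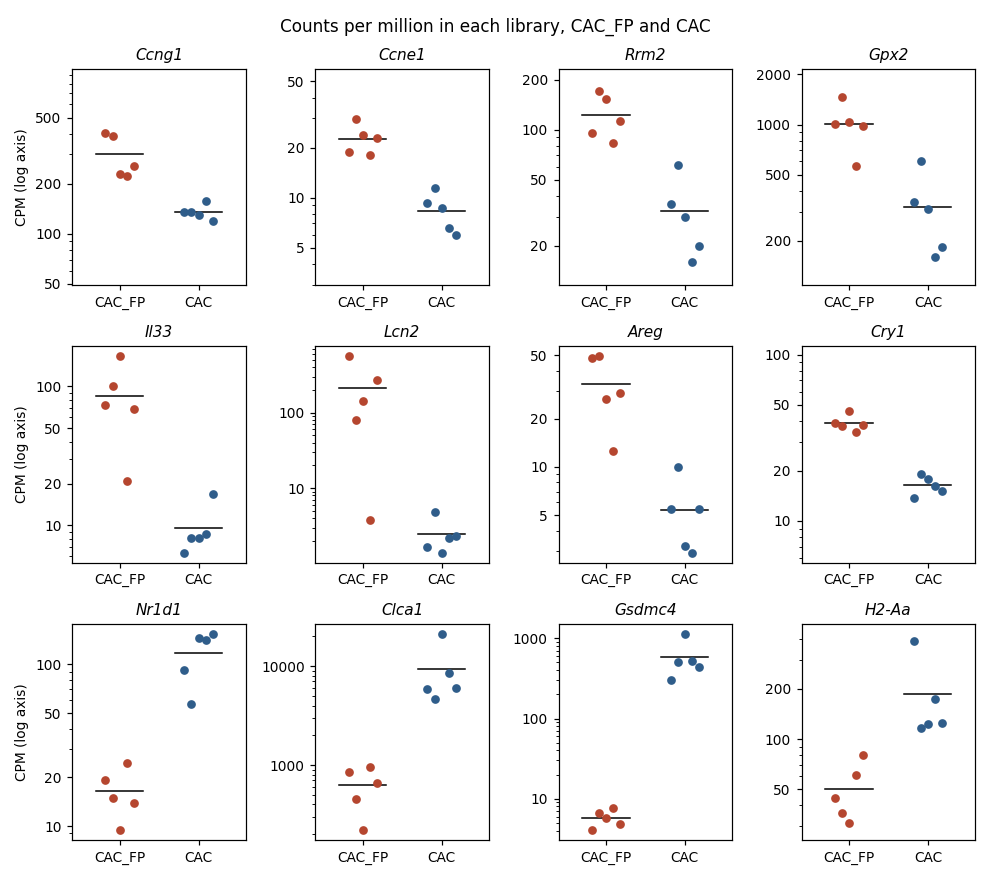
CPM (log axes) of 12 genes in each of the 5 CAC_FP libraries (left) and 5 CAC libraries (right), with a bar at the group mean. The groups do not overlap for 10 of the genes; Gpx2 and Lcn2 overlap through CAC_FP replicate 4.

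Genes for DNA replication were higher in CAC_FP. Of 30 S phase genes tested, 17 were called higher and none lower, all 30 had a positive log2 fold change (median 0.78), and 13 did not overlap between groups. The count was 11 without CAC_FP replicate 3 and 1 with the smooth muscle covariate. Ccne1, the cyclin that starts S phase, had 18.8, 29.7, 23.9, 18.1 and 22.8 CPM in CAC_FP, against 9.32, 11.4, 8.62, 6.54 and 5.98 CPM in CAC. The lowest CAC_FP library was clear of the highest CAC library, and the log2 fold change was 1.44 ± 0.28 (adjusted p = 0.00257). Rrm2, the inducible subunit of the enzyme that makes deoxyribonucleotides, had 95.1, 170, 152, 83.7 and 112 CPM in CAC_FP, against 35.8, 61.1, 29.8, 15.9 and 20.0 CPM in CAC. All CAC_FP values lay above all CAC values, and the log2 fold change was 1.91 ± 0.43 (adjusted p = 0.00545), a call lost with the smooth muscle covariate, where it was 1.48 (adjusted p over all alternatives 0.000113 to 0.0595).

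The MCM proteins form the helicase that unwinds DNA at replication forks, and Cdt1 loads it onto origins. Mcm3 had 60.8, 103, 101, 79.3 and 76.4 CPM in CAC_FP, against 43.9, 59.1, 36.8, 22.1 and 31.1 CPM in CAC (log2 fold change 1.12 ± 0.28, adjusted p = 0.0101). Mcm5 had 79.0 to 152 CPM in CAC_FP and 37.2 to 84.5 CPM in CAC (1.08 ± 0.28, adjusted p = 0.0128). Cdt1 had 33.9 to 56.6 CPM in CAC_FP and 15.5 to 28.1 CPM in CAC (0.95 ± 0.24, adjusted p = 0.0103). Mcm3 and Cdt1 did not overlap between the groups, whereas CAC replicate 2 lay above CAC_FP replicate 1 for Mcm5. All 3 calls were lost with the smooth muscle covariate.

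Promoters of S phase genes are bound by E2F factors, and the sequence they recognise was looked for in RefSeq promoters (GRCm38.p6), each from 250 bases before to 50 after the gene's start. The letters searched were TTTCCCGC, TTTGGCGC, TTTCGCGC and TTTGCCGC on both strands. At least 1 of them was in the promoter of 8 of the 14 called S phase genes that have one in the table (57.1%), in 2 of the 11 that were not called (18.2%), and in 4.5% of the 10320 tested genes with a promoter. None of the 12 called p53 targets with a promoter held one. The box CCAAT, on either strand, was in 71.4% of the called S phase promoters, 63.6% of those not called and 42.4% of all tested. Mcm3 lies on the minus strand at chr1:20820263-20820562, Mcm5 on the plus strand at chr8:75109259-75109558 and Cdt1 on the plus strand at chr8:122567765-122568064. Their promoters are shown 5′ to 3′ because these called genes hold the letters; capitals mark the matches, which overlap each other in Mcm5. A match is a description of the letters and not evidence of binding.
Mcm3: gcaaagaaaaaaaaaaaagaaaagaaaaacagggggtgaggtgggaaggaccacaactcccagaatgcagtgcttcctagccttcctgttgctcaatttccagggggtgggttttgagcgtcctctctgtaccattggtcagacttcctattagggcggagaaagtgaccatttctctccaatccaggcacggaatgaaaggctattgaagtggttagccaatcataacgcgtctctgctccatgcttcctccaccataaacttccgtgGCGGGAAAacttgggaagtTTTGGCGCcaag
Mcm5: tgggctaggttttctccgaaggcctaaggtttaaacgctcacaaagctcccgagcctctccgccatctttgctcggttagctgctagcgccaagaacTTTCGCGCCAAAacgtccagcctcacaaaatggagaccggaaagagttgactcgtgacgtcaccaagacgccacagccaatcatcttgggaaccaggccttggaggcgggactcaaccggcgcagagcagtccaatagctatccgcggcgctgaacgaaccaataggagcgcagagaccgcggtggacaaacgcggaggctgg
Cdt1: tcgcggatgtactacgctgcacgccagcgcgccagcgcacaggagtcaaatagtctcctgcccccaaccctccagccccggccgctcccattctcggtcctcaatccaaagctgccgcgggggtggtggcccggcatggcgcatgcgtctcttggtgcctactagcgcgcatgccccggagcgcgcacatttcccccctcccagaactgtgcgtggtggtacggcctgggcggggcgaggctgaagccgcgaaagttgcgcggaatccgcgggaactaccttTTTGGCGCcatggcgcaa

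Genes of mitosis gave few calls. All 25 tested had a positive log2 fold change (median 0.55), but only Kif23 and Aurka were called. That count of 2 was 0 without CAC_FP replicate 2, 3 or 4 or CAC replicate 3, 4 or 5, it was 1 without CAC replicate 1, it was 7 without CAC replicate 2, and it was 0 with the smooth muscle covariate. Mki67, the usual marker of cycling cells, had 186 to 304 CPM in CAC_FP and 159 to 338 CPM in CAC. Its log2 fold change was 0.30 ± 0.23 (adjusted p = 0.359), and the groups overlapped.

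Among genes that repair platinum lesions, 10 of 26 were called higher and 1, the damage sensor Ddb2, lower. The higher count was 6 without CAC_FP replicate 2, 5 without CAC replicate 4 and 2 with the smooth muscle covariate. The lower count was 0 with that covariate and without CAC_FP replicate 1, 2 or 3 or CAC replicate 4 or 5, and 2 without CAC_FP replicate 4. Brca1, needed for repair by homologous recombination, had 30.7, 40.5, 30.3, 36.1 and 26.1 CPM in CAC_FP, against 12.2, 18.2, 11.4, 9.71 and 10.1 CPM in CAC. The groups did not overlap, and the log2 fold change was 1.41 ± 0.28 (adjusted p = 0.00269). Fanca, of the complex that recognises crosslinked DNA, was higher by 1.17 ± 0.28 (adjusted p = 0.00736), and the mismatch repair gene Msh6 by 0.65 ± 0.16 (adjusted p = 0.00871). The Fanca and Msh6 calls were lost with the smooth muscle covariate, and the Brca1 call was not.

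Of 20 genes that transport or metabolise fluorouracil, folate and platinum, 5 were called higher and none lower. That count was 3 without CAC_FP replicate 2, CAC replicate 3 or CAC replicate 5, 2 without CAC_FP replicate 3 or CAC replicate 4, and 1 with the smooth muscle covariate. Abcc4, an exporter of nucleotide analogues, had 23.3 to 41.8 CPM in CAC_FP and 14.5 to 28.6 CPM in CAC (log2 fold change 0.81 ± 0.21, adjusted p = 0.0103). Shmt1, which charges folate with a carbon unit, had 66.8 to 92.4 CPM in CAC_FP and 48.0 to 64.5 CPM in CAC, without overlap (0.49 ± 0.13, adjusted p = 0.0142). Neither passed with the smooth muscle covariate. Tyms, which encodes thymidylate synthase, the target of fluorouracil, had 27.4 to 46.1 CPM in CAC_FP and 23.4 to 39.3 CPM in CAC, and its log2 fold change of 0.28 ± 0.17 did not pass (adjusted p = 0.244).

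Genes of the Nrf2 pathway, which answers oxidative and electrophilic stress, were higher in CAC_FP. Of 16 tested, 8 were called higher and none lower (median log2 fold change 0.53), and 5 with the smooth muscle covariate. Gpx2, the glutathione peroxidase of the gut epithelium, had 1012, 1460, 1040, 560 and 984 CPM in CAC_FP, against 341, 605, 309, 160 and 184 CPM in CAC. CAC_FP replicate 4 was just below CAC replicate 2, the other CAC_FP libraries were above all CAC libraries, and the log2 fold change was 1.66 ± 0.37 (adjusted p = 0.00512). Txnrd1, thioredoxin reductase, had 373 to 502 CPM in CAC_FP and 190 to 294 CPM in CAC (0.81 ± 0.15, adjusted p = 0.00171). Srxn1, which restores oxidised peroxiredoxins, had 179, 152, 172, 132 and 142 CPM in CAC_FP, against 87.5, 86.2, 106, 84.7 and 76.9 CPM in CAC (0.82 ± 0.17, adjusted p = 0.00356), without overlap. Hmox1, which breaks down haem, had 12.1 to 30.1 CPM in CAC_FP and 7.73 to 12.3 CPM in CAC (1.26 ± 0.30, adjusted p = 0.00719).

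Nrf2 binds the antioxidant response element, searched here as TGACNNNGC on both strands. It was in 4 of the 5 called members with a RefSeq promoter (80%), in 3 of the 7 that were not called (42.9%) and in 16.8% of tested genes with a promoter. The Srxn1 promoter, on the plus strand at chr2:152105274-152105573, is shown as an example, with the match, which is on the other strand, in capitals.
Srxn1: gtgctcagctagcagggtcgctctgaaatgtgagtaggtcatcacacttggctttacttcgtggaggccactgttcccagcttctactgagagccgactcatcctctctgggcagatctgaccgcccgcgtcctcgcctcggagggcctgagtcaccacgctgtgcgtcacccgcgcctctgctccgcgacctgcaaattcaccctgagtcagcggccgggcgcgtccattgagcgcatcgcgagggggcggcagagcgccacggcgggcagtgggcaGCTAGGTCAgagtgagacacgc

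The list for endoplasmic reticulum and integrated stress split, with 3 of 18 members called higher and 3 lower, and with 5 higher without CAC_FP replicate 4. Higher were Creb3l3, a membrane-bound transcription factor, Psat1, of serine synthesis, and Sesn2; lower were Ddit3 (CHOP), the chaperone Dnajb9 and Atf4. Creb3l3 had 5.55 to 34.6 CPM in CAC_FP and 0.646 to 2.75 CPM in CAC, a log2 fold change of 3.60 ± 0.74 (adjusted p = 0.00329). Ddit3 had 11.9 to 15.1 CPM in CAC_FP and 14.6 to 30.0 CPM in CAC (-0.69 ± 0.17, adjusted p = 0.00966).

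Inflammatory cytokines, chemokines and proteases were higher in CAC_FP. Of 22 tested, all 22 had a positive log2 fold change (median 2.16), 12 were called higher and none lower, and 7 with the smooth muscle covariate. Il33, an alarm cytokine released by damaged barrier cells, had 73.9, 102, 165, 20.7 and 68.3 CPM in CAC_FP, against 6.36, 8.16, 8.09, 8.74 and 17.0 CPM in CAC. CAC_FP replicate 4 was the lowest of its group and still above every CAC library, and the log2 fold change was 3.15 ± 0.62 (adjusted p = 0.00281). Csf3, the growth factor of neutrophils, had 71.0, 6.70, 14.3, 0.0557 and 15.2 CPM in CAC_FP, against 0.183 CPM in CAC replicate 3 and 0 in the other CAC libraries. CAC_FP replicate 4 was within the CAC range, and the log2 fold change was 9.20 ± 2.12 (adjusted p = 0.00639), 7.97 without CAC_FP replicate 1 and 13.5 without CAC replicate 3. Il6, a driver of the acute phase response, had 0.278 to 16.4 CPM in CAC_FP and 0 to 0.167 CPM in CAC, without overlap. Its log2 fold change was 7.13 ± 1.99 (adjusted p = 0.0169), 6.46 without CAC_FP replicate 1 and 8.56 without CAC replicate 3. The monocyte chemokines Ccl2 and Ccl7 were higher by 4.79 ± 1.18 (adjusted p = 0.00907) and 4.78 ± 1.10 (adjusted p = 0.00622). Il1b, a product of activated myeloid cells, had 3.48 to 31.5 CPM in CAC_FP and 2.10 to 12.5 CPM in CAC, and its log2 fold change of 1.03 ± 0.74 did not pass (adjusted p = 0.336; 0.34 without CAC_FP replicate 1).

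The libraries differed in these genes within CAC_FP, and so did markers of fat cells. The summed inflammatory list was 563, 313, 551, 82.0 and 272 CPM in CAC_FP replicates 1 to 5, against 57.5, 102, 45.4, 32.8 and 51.1 CPM in CAC. The summed list of 10 adipocyte genes was 1775, 154, 1025, 77.2 and 808 CPM in the same CAC_FP libraries, against 64.6, 88.1, 91.0, 102 and 652 CPM in CAC. All 10 adipocyte genes had a positive log2 fold change (median 2.13) and none was called. The defining adipocyte hormone Adipoq was at 34.6, 0.206, 26.4, 0 and 10.3 CPM in CAC_FP and at 0.0610, 0.0531, 0.384, 0.413 and 14.9 CPM in CAC. CAC_FP replicates 1 and 3 had the most Adipoq and the highest inflammatory sums. CAC_FP replicate 4 had Adipoq at 0 and the lowest inflammatory sum of its group. CAC_FP replicate 2, with little Adipoq, had a higher inflammatory sum than every CAC library. CAC replicate 5, with more Adipoq than CAC_FP replicate 5, had an inflammatory sum within the range of the other CAC libraries. With the adipocyte list as a covariate, 11 inflammatory genes were called. Whether fat content contributes to the inflammatory difference was not tested.

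**Figure D3:**
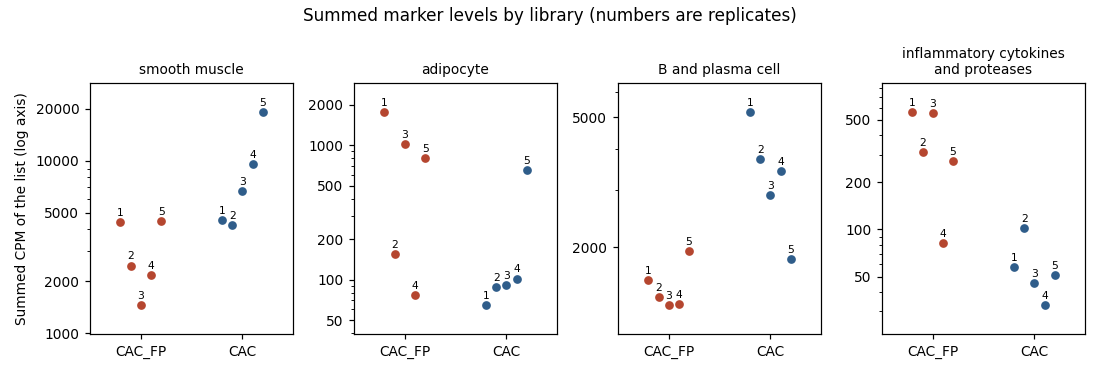
Summed CPM (log axes) of the smooth muscle, adipocyte, B and plasma cell and inflammatory lists in each library, CAC_FP left and CAC right, numbered by replicate. Adipocyte sums are high in CAC_FP replicates 1, 3 and 5 and CAC replicate 5, and the inflammatory sum is lowest among CAC_FP libraries in replicate 4, at 82.0 CPM.

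Markers of the cells that such signals recruit gave fewer calls. In the macrophage and monocyte list 4 of 16 genes were called higher and 1 lower. Mrc1, the mannose receptor of tissue macrophages, had 85.1 to 253 CPM in CAC_FP and 38.1 to 68.7 CPM in CAC (1.56 ± 0.40, adjusted p = 0.0111). Spp1, osteopontin, had 2.25 to 16.2 CPM in CAC_FP and 0.767 to 2.39 CPM in CAC (2.53 ± 0.51, adjusted p = 0.00316). Ccr2, the receptor of monocytes newly arrived from blood, had 1.75 to 4.71 CPM in CAC_FP and 7.26 to 17.2 CPM in CAC (-1.82 ± 0.44, adjusted p = 0.00842). Of 7 neutrophil genes tested, 2 had a positive log2 fold change and 5 a negative one (median -0.04). Cxcr2, Ngp, Camp, Elane and Mpo were below the expression threshold and were not tested. Only Ly6g was called (4.18 ± 1.12, adjusted p = 0.0140, or 7.03 without CAC replicate 2), at 89.0 to 646 CPM in CAC_FP and 2.26 to 92.2 CPM in CAC. S100a8, an abundant transcript of neutrophils, was at 0.111 to 0.780 CPM in CAC_FP and 0 to 2.16 CPM in CAC (-0.21 ± 1.10, adjusted p = 0.912), and 2.66 without CAC replicate 2, which held the 2.16 CPM. Whether the Ly6g transcripts come from neutrophils was not tested.

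Epithelial defence genes changed in both directions. Of 17 tested, 7 were called higher and 4 lower. The higher count was 4 without CAC replicate 4 or 5, the lower count 2 without CAC_FP replicate 2 or 3, and the smooth muscle covariate left 3 in each direction. Lcn2, an iron-sequestering protein of inflamed epithelium, had 560, 79.2, 145, 3.77 and 270 CPM in CAC_FP, against 1.66, 4.79, 1.39, 2.17 and 2.34 CPM in CAC. CAC_FP replicate 4 lay inside the CAC range and the other 4 libraries far above it, and the log2 fold change was 6.41 ± 1.40 (adjusted p = 0.00482; 5.66 without CAC_FP replicate 1). Pla2g2a, a phospholipase that attacks bacterial membranes, had 697 to 3085 CPM in CAC_FP and 63.6 to 581 CPM in CAC, without overlap (3.11 ± 0.53, adjusted p = 0.00120; 3.91 without CAC replicate 2). Reg3g, a lectin that binds Gram-positive bacteria, had 132 to 1021 CPM in CAC_FP and 23.9 to 133 CPM in CAC (2.86 ± 0.77, adjusted p = 0.0146). The Reg3g call was lost with the smooth muscle covariate. The Reg3 genes are related, and the sources do not say how reads that fit more than 1 gene were counted. The 4 lower genes were Retnlb and Ang4, antibacterial products of goblet and crypt cells, the lectin Itln1, and Pigr, which carries IgA across the epithelium. Retnlb had 22.8 to 99.0 CPM in CAC_FP and 211 to 1723 CPM in CAC (-3.41 ± 0.75, adjusted p = 0.00505; -2.80 without CAC replicate 3).

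Genes that sense microbes were higher in 6 of 19 cases and lower in none, and 3 were called with the smooth muscle covariate. Nlrc4, which forms an inflammasome on bacterial flagellin, had 89.5, 76.6, 103, 68.8 and 65.0 CPM in CAC_FP, against 45.0, 38.6, 58.1, 42.6 and 38.1 CPM in CAC. The groups did not overlap, and the log2 fold change was 0.86 ± 0.15 (adjusted p = 0.00153). Lbp, which presents lipopolysaccharide to its receptor, was higher by 2.60 ± 0.66 (adjusted p = 0.0103), with CAC_FP replicate 4 inside the CAC range. Tlr11, a mouse receptor for profilin and flagellin that was no member of this list, was among the genes with the smallest adjusted p: it had 0.118 to 0.459 CPM in CAC_FP and 2.47 to 5.12 CPM in CAC (-3.84 ± 0.59, adjusted p = 0.000718).

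Genes for the EGF receptor family and its ligands, which drive epithelial repair, were mostly higher in CAC_FP. Of 9 tested, 7 had a positive log2 fold change and 2 a negative one. The 5 called were all higher (Areg, Ereg, Egfr, Btc and Nrg1), and 3 were called without CAC_FP replicate 2 or without CAC replicate 1, 3, 4 or 5. Areg had 47.6, 49.2, 26.5, 12.6 and 29.1 CPM in CAC_FP, against 5.46, 10.1, 3.22, 2.91 and 5.43 CPM in CAC. Ereg had 138, 149, 171, 34.1 and 143 CPM in CAC_FP, against 27.3, 30.4, 13.1, 20.4 and 24.6 CPM in CAC. For both ligands every CAC_FP library was above every CAC library, with CAC_FP replicate 4 the lowest, and log2 fold changes were 2.60 ± 0.48 (adjusted p = 0.00201) and 2.46 ± 0.54 (adjusted p = 0.00512). The receptor Egfr was higher by 0.77 ± 0.22 (adjusted p = 0.0184). In the list of stem cell and Wnt feedback genes, 3 of 15 were called higher (Bmi1, Myc and Wif1) and 1 lower (Znrf3). The median log2 fold change of that list was 0.10, with 9 genes positive and 6 negative. Myc, which promotes growth and division, had 52.6 to 106 CPM in CAC_FP and 18.1 to 50.8 CPM in CAC (1.38 ± 0.32, adjusted p = 0.00647). Bmi1, a chromatin repressor linked to crypt stem cells, had 54.1 to 68.1 CPM in CAC_FP and 32.5 to 45.0 CPM in CAC (0.64 ± 0.13, adjusted p = 0.00329). Lgr5, the receptor that marks crypt base stem cells, was below the expression threshold and was not tested, at 0.438 to 4.06 CPM in CAC_FP and 0.690 to 5.22 CPM in CAC.

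Genes of stratified epithelium and wound edges were among the largest increases, from low levels. Of 11 such genes 4 were called higher (Krt4, Ly6d, Krt6a and Krt7) and 1 lower (Krt17), and 7 were higher without CAC replicate 2. The Krt17 call was lost with the smooth muscle covariate. Krt4 had 0.354 to 4.80 CPM in CAC_FP and 0 to 0.0667 CPM in CAC (5.89 ± 1.09, adjusted p = 0.00195). Prss22, a tryptase-like serine protease, had 25.2, 23.9, 23.0, 2.56 and 16.3 CPM in CAC_FP, against 0, 0.504, 0.200, 0 and 0 CPM in CAC. The groups did not overlap, and the log2 fold change was 6.92 ± 0.92 (adjusted p = 0.000136; 8.50 without CAC replicate 2). Ppl, the cell junction protein periplakin, had 22.6 to 39.9 CPM in CAC_FP and 6.59 to 13.2 CPM in CAC (1.35 ± 0.19, adjusted p = 0.000241). Of the markers of basal squamous cells, Krt5 was at 0 to 0.385 CPM in CAC_FP and 0 to 0.478 CPM in CAC, and Trp63 at 0 to 1.09 CPM in CAC_FP and 0.0305 to 0.267 CPM in CAC. Cldn4, a claudin of tight junctions, was higher (2.14 ± 0.45, adjusted p = 0.00388), at 31.0 to 119 CPM in CAC_FP and 6.86 to 32.5 CPM in CAC.

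Goblet cell genes were lower in CAC_FP: 6 of 18 were called lower and none higher (median log2 fold change -0.94), and 3 with the smooth muscle covariate. Clca1, a secreted protease that processes mucus, had 856, 456, 219, 952 and 664 CPM in CAC_FP, against 5817, 4691, 21320, 8440 and 6013 CPM in CAC. The highest CAC_FP library was far below the lowest CAC library, and the log2 fold change was -3.88 ± 0.62 (adjusted p = 0.000806). Ang4 had 0.769 to 65.5 CPM in CAC_FP and 197 to 2289 CPM in CAC (-5.13 ± 1.26, adjusted p = 0.00881), a call lost with the smooth muscle covariate. Creb3l1, a transcription factor of secretory cells, had 86.9 to 143 CPM in CAC_FP and 195 to 292 CPM in CAC (-1.15 ± 0.28, adjusted p = 0.00755). Muc2, the gel-forming mucin that defines goblet cells, had 3103 to 23800 CPM in CAC_FP and 8487 to 31360 CPM in CAC. Its groups overlapped, and its log2 fold change was -0.42 ± 0.54 (adjusted p = 0.618).

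The gasdermin C genes, pore-forming proteins of mature colon epithelium, were among the largest decreases. Gsdmc4 had 4.04, 6.67, 5.67, 7.73 and 4.87 CPM in CAC_FP, against 301, 504, 1146, 520 and 445 CPM in CAC. The log2 fold change was -6.65 ± 1.06 (adjusted p = 0.000806). The copies of this family are near-identical, so single genes are uncertain; the 5 summed had 43.6 to 79.7 CPM in CAC_FP and 1306 to 4491 CPM in CAC. In the list of 8 gasdermins and mucosal pentraxins 6 were called lower, and Gsdmd, which executes pyroptosis, was called higher (0.48 ± 0.13, adjusted p = 0.0146), a call lost with the smooth muscle covariate. The pentraxin Mptx2, an antibacterial protein described in Paneth cells, had 0.292 to 1.92 CPM in CAC_FP and 38.4 to 169 CPM in CAC (-6.13 ± 1.20, adjusted p = 0.00266; -5.51 without CAC replicate 2).

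Tuft cells, chemosensory cells of the epithelium, had 4 of 9 genes called lower and none higher. Gnat3, their taste-type G protein subunit, was at 0 in all 5 CAC_FP libraries and at 0.732, 0.783, 1.89, 0.862 and 0.871 CPM in CAC. Against a floor of 3 counts over the CAC_FP group it was at least 119-fold lower. Trpm5, the cation channel behind it, had 0.446 to 2.50 CPM in CAC_FP and 3.96 to 12.8 CPM in CAC (-2.78 ± 0.52, adjusted p = 0.00201). Among enteroendocrine genes 1 of 11 was called, the hormone Sst, at 2.60 to 9.33 CPM in CAC_FP and 8.88 to 54.2 CPM in CAC (-2.10 ± 0.42, adjusted p = 0.00315), a call lost with the smooth muscle covariate. None of 21 absorptive colonocyte genes was called by edgeR's test (median log2 fold change 0.22), and 1 or 2 were without CAC_FP replicate 4 or CAC replicate 2 or 3. The chloride exchanger Slc26a3 had 39.5 to 143 CPM in CAC_FP and 88.5 to 233 CPM in CAC (-1.07 ± 0.62, adjusted p = 0.220). The water channel Aqp8 did not overlap, at 0.369 to 3.60 CPM in CAC_FP and 4.99 to 71.4 CPM in CAC, but varied widely within groups (-3.82 ± 1.47, adjusted p = 0.0676; 0.0130 to 0.168 over the alternatives, lowest with DESeq2; -2.73 without CAC replicate 2).

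Genes of MHC class II, which present antigen to helper T cells, were lower. Of 11 tested, all 11 had a negative log2 fold change (median -1.60), 7 were called lower and none higher, and 4 without CAC replicate 1. H2-Aa had 44.1, 36.1, 31.1, 60.5 and 80.0 CPM in CAC_FP, against 391, 117, 123, 175 and 126 CPM in CAC. The groups did not overlap, CAC replicate 1 was the highest library, and the log2 fold change was -1.89 ± 0.33 (adjusted p = 0.00153). H2-Eb1 and H2-Ab1 fell too, by 1.93 ± 0.35 (adjusted p = 0.00175) and 1.60 ± 0.31 (adjusted p = 0.00246) on the log2 scale. Clec9a, a receptor of cross-presenting dendritic cells, had 0.569 to 1.68 CPM in CAC_FP and 3.50 to 5.54 CPM in CAC (-2.09 ± 0.32, adjusted p = 0.000734).

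Lymphocyte genes were lower too. In the B and plasma cell list 5 of 18 were called lower and none higher (median log2 fold change -1.72), and 15 with the smooth muscle covariate. Jchain, which joins IgA into dimers, had 1001, 848, 696, 801 and 1327 CPM in CAC_FP, against 3971, 2795, 2147, 2622 and 1296 CPM in CAC. CAC replicate 5 lay within the CAC_FP range and the other CAC libraries above it, and the log2 fold change was -1.46 ± 0.28 (adjusted p = 0.00229). Tnfrsf17 (BCMA), a survival receptor of plasma cells, had 0.633 to 1.50 CPM in CAC_FP and 2.36 to 6.24 CPM in CAC (-1.99 ± 0.40, adjusted p = 0.00294). In the T cell list all 18 genes had a negative log2 fold change (median -1.06) and 4 were called. That count was 1 without CAC_FP replicate 1, 2, 3 or 5 or CAC replicate 1 or 4, 7 without CAC replicate 2, 8 without CAC replicate 3, 11 with the smooth muscle covariate and 1 with the adipocyte covariate. Ccr7, which guides lymphocytes and dendritic cells to lymph nodes, had 0.150 to 1.95 CPM in CAC_FP and 2.40 to 15.2 CPM in CAC (-3.22 ± 0.83, adjusted p = 0.0118).

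Of 25 type I interferon response genes 23 had a negative log2 fold change (median -1.31) and 8 were called lower. This count depended on single libraries: it was 2 to 5 without any 1 of the 5 CAC_FP libraries or of CAC replicates 3, 4 and 5, it was 14 without CAC replicate 2, and it was 1 with the smooth muscle covariate. Oas1a, which makes the messenger that activates RNase L, had 42.0 to 61.0 CPM in CAC_FP and 72.0 to 134 CPM in CAC, without overlap (-1.11 ± 0.25, adjusted p = 0.00521). Isg15 had 1.92 to 10.4 CPM in CAC_FP and 8.95 to 41.2 CPM in CAC, with CAC replicate 2 inside the CAC_FP range.

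Haemoglobin transcripts, which come from young red cells, were nearly absent in CAC_FP. The 4 adult globin genes summed to 0 to 0.328 CPM in CAC_FP and to 27.9 to 254 CPM in CAC, and all 4 were called lower. Hbb-bt had 3 counts over the 5 CAC_FP libraries, all in replicate 4, and 2950 over the 5 CAC libraries, a ratio of 1082-fold lower (95% exact Poisson interval 370 to 5251, counting error only). The alpha copies Hba-a1 and Hba-a2 are near-identical and were read together with the beta copies in the sum. The log2 fold changes of all 4 lay between -10.6 and -8.00, and without CAC replicate 5, the library with the most, Hba-a1 was at -8.26 against -9.10, Hba-a2 at -7.18 against -8.00, Hbb-bs at -9.87 against -10.6 and Hbb-bt at -9.00 against -9.79. Without CAC_FP replicate 4 Hbb-bs was at -11.6 and Hbb-bt at -12.3.

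Genes of the circadian clock held the smallest adjusted p-values of the comparison in both directions. Cry1, a repressor that closes the clock's feedback loop, had 38.9, 37.3, 45.8, 34.1 and 37.6 CPM in CAC_FP, against 13.8, 19.1, 18.0, 16.2 and 15.2 CPM in CAC. The spread within each group was small, no CAC_FP library came near a CAC library, and the log2 fold change was 1.23 ± 0.12 (adjusted p = 6.91e-06). Nr1d1 (REV-ERBα), which represses Bmal1 and is itself driven by the clock, had 19.1, 14.9, 9.41, 24.6 and 13.9 CPM in CAC_FP, against 92.1, 57.1, 146, 141 and 155 CPM in CAC. The groups were far apart, with CAC replicate 2 the lowest of its group, and the log2 fold change was -2.85 ± 0.35 (adjusted p = 8.38e-05). Of the 18 clock genes tested 6 were called lower (Nr1d1, Bhlhe41, Dbp, Nr1d2, Ciart and Hlf) and 3 higher (Cry1, Nfil3 and Bhlhe40); 3 were lower and 1 higher with the smooth muscle covariate. Dbp, an output activator that peaks with Nr1d1, had 2.71, 2.59, 1.11, 14.1 and 3.43 CPM in CAC_FP, against 27.7, 17.7, 48.8, 49.6 and 47.9 CPM in CAC (-3.00 ± 0.67, adjusted p = 0.00527; -3.94 without CAC_FP replicate 4). Nfil3, which represses the same output genes that Dbp activates, had 19.9 to 63.9 CPM in CAC_FP and 8.49 to 19.0 CPM in CAC, without overlap (1.70 ± 0.47, adjusted p = 0.0161), a call lost with the smooth muscle covariate. The labels give no time of day for the tissue, so hour of collection and treatment cannot be told apart for these genes.

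Clock activators bind the E-box CACGTG, a motif looked for after these values were seen. The Cry1 promoter, on the minus strand at chr10:85185005-85185304, holds 1, which is capitalised here. So did 11.4% of tested genes with a promoter, and 2 of the 6 called lower clock genes.
Cry1: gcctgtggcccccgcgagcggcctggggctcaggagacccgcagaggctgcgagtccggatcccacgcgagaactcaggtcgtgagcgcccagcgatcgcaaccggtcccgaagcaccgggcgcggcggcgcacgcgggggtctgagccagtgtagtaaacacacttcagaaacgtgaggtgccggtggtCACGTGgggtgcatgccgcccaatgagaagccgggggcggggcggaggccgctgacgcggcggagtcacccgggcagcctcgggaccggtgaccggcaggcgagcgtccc

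The series title names NAD+ metabolism, and genes that make or use this redox cofactor are given next. Of 13 biosynthesis genes 3 were called higher and 1 lower, and none in either direction with the smooth muscle covariate. Pnp, which releases nicotinamide from its riboside, had 90.0, 83.0, 130, 64.2 and 85.4 CPM in CAC_FP, against 57.8, 64.1, 50.7, 44.8 and 43.1 CPM in CAC. CAC_FP replicate 4 and CAC replicate 2 nearly met, and the log2 fold change was 0.80 ± 0.18 (adjusted p = 0.00528). Nadk, which turns NAD into NADP, had 265 to 358 CPM in CAC_FP and 192 to 251 CPM in CAC (0.41 ± 0.11, adjusted p = 0.0124). Nampt, the rate-limiting enzyme of the salvage pathway, had 84.7 to 136 CPM in CAC_FP and 75.8 to 107 CPM in CAC (0.24 ± 0.16, adjusted p = 0.294). Naprt, which starts the route from nicotinic acid, had 26.4 to 47.0 CPM in CAC_FP and 31.2 to 50.4 CPM in CAC (-0.48 ± 0.22, adjusted p = 0.130). It passed without CAC_FP replicate 4 (adjusted p = 0.047) and by limma voom with library weights (adjusted p = 0.00686). The highest adjusted p over the alternatives was 0.273.

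Among 22 NAD-consuming genes 1 was called higher and 1 lower, and none with the smooth muscle covariate. Cd38, the main NAD glycohydrolase, had 312, 302, 342, 246 and 274 CPM in CAC_FP, against 116, 200, 156, 94.8 and 80.5 CPM in CAC. Every CAC_FP library was above every CAC library, and the log2 fold change was 1.19 ± 0.30 (adjusted p = 0.00990), or 0.65 with the smooth muscle covariate, where it did not pass. Sirt1, an NAD-dependent deacetylase, had 20.7 to 30.2 CPM in CAC_FP and 23.5 to 42.1 CPM in CAC (-0.50 ± 0.14, adjusted p = 0.0140), a call lost without CAC_FP replicate 2 (adjusted p over the alternatives 0.000404 to 0.0747).

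Of 20 glycolysis and hypoxia genes 8 were called higher and none lower (median log2 fold change 0.37). That count was 3 without CAC_FP replicate 3, 4 without CAC replicate 1, 4 or 5, and 2 with the smooth muscle covariate. Pkm, pyruvate kinase, had 918 to 1592 CPM in CAC_FP and 616 to 861 CPM in CAC (0.77 ± 0.14, adjusted p = 0.00175), and Hk2, the hexokinase of growing cells, had 129 to 242 CPM in CAC_FP and 63.0 to 121 CPM in CAC (1.14 ± 0.27, adjusted p = 0.00773), the second of these calls being lost with the smooth muscle covariate. Plin2, which coats lipid droplets, had 116 to 233 CPM in CAC_FP and 77.7 to 91.3 CPM in CAC (0.92 ± 0.18, adjusted p = 0.00258). Of 27 nuclear respiratory chain genes 2 were called lower and 23 had a negative log2 fold change (median -0.17); that count was 0 with the smooth muscle covariate, 1 without CAC_FP replicate 2 or 3 or CAC replicate 4 and 4 without CAC_FP replicate 4. Ffar2, a receptor for the short-chain fatty acids that gut bacteria make, had 12.3 to 23.0 CPM in CAC_FP and 18.9 to 50.8 CPM in CAC (-1.06 ± 0.28, adjusted p = 0.0128).

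Further genes with the smallest adjusted p belonged to none of these groups. The zinc importer Slc39a10 had 98.3, 103, 87.4, 68.3 and 80.8 CPM in CAC_FP, against 23.0, 30.4, 29.2, 29.4 and 24.6 CPM in CAC (1.68 ± 0.20, adjusted p = 4.36e-05). Atg9b, a lipid scramblase of autophagy, had 19.7 to 71.1 CPM in CAC_FP and 0.930 to 3.50 CPM in CAC (4.63 ± 0.59, adjusted p = 0.000105). Lpcat4, which remodels membrane phospholipids, had 51.5 to 95.0 CPM in CAC_FP and 18.3 to 35.9 CPM in CAC (1.49 ± 0.20, adjusted p = 0.000136). All 3 were higher in each CAC_FP library than in any CAC library. Rbp2, a retinol carrier of the small intestine, had 5.75 to 87.6 CPM in CAC_FP and 1.10 to 2.49 CPM in CAC (4.02 ± 0.59, adjusted p = 0.000465; 3.03 without CAC_FP replicate 3). Of 12 endothelial genes 0 were called by edgeR's test, and of 18 fibroblast genes 1 was, Pdgfra, which was higher. Of 14 enteric neuron and glia genes Stmn2 was called lower; that call was lost with the smooth muscle covariate and without CAC_FP replicate 2, 3 or 4 or CAC replicate 1, 4 or 5.

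CAC_FP was also compared with CAC_F, to ask what the probiotic complex added to FOLFOX. No gene was called (0 of 15080, 0%; edgeR quasi-likelihood test; lowest adjusted p = 0.119), and 2401 genes had an unadjusted p under 0.05. Limma voom with library weights called 38 genes and DESeq2 called 238. Without CAC_F replicate 3 the edgeR test called 616 genes, and without CAC_F replicate 5 it called 3. Against CAC, 5902 genes (39.1%) were called in CAC_F and 2802 (18.6%) in CAC_FP; these comparisons share the CAC libraries, and no difference between them passed. Values for the same lists stood as follows. Against CAC, 19% of all genes were higher in CAC_F and 20.2% lower. Of 26 p53 targets 14 were higher in CAC_FP (median log2 fold change 0.62) and 18 in CAC_F (1.11). Of 30 S phase genes 17 were higher in CAC_FP (0.78) and 26 in CAC_F (1.02). Of 22 inflammatory genes 12 were higher in CAC_FP (2.16) and 20 in CAC_F (4.32), and of 18 goblet genes 6 were lower in CAC_FP (-0.94) and 11 in CAC_F (-1.61). Not all lists had the larger median in CAC_F. Of 11 MHC class II genes 7 were lower in CAC_FP (-1.60) and 8 in CAC_F (-1.36). Of 18 B and plasma cell genes 5 were lower in CAC_FP (-1.72) and 4 in CAC_F (-1.23). Of 15 smooth muscle genes 13 were lower in CAC_FP (-1.44) and 13 in CAC_F (-1.43).

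Among the 5 genes lower in CAC_FP with the smallest unadjusted p was Ptgs2, which encodes the inducible cyclooxygenase that makes prostaglandins. It had 6.66, 6.58, 8.72, 3.17 and 6.54 CPM in CAC_FP and 321, 254, 7.97, 6.21 and 10.5 CPM in CAC_F, against 6.83, 6.80, 2.82, 1.69 and 8.45 CPM in CAC. The CAC_F level rested on replicates 1 and 2, and the other 3 CAC_F libraries lay near the CAC_FP range. The log2 fold change of CAC_FP over CAC_F was -4.24 ± 0.92 (adjusted p = 0.119), and that of CAC_FP over CAC 0.25 ± 0.82 (adjusted p = 0.857). Aoc1, the diamine oxidase that degrades gut histamine, had 41.7, 44.7, 44.6, 84.3 and 31.8 CPM in CAC_FP and 12.1, 6.31, 25.6, 24.8 and 14.5 CPM in CAC_F, against 73.0, 82.4, 99.5, 120 and 113 CPM in CAC. CAC_FP lay above CAC_F in every library (log2 fold change 1.57 ± 0.34, adjusted p = 0.119), and mostly below CAC. Arih2, a ubiquitin ligase, had 77.0 to 98.5 CPM in CAC_FP and 99.9 to 181 CPM in CAC_F, against 73.1 to 85.6 CPM in CAC (-0.62 ± 0.13 for CAC_FP over CAC_F, adjusted p = 0.119). Cd209a, a lectin of dendritic cells, had 0.294 to 3.93 CPM in CAC_FP and 0.165 to 0.430 CPM in CAC_F, against 1.91 to 4.49 CPM in CAC (3.13 ± 0.62 for CAC_FP over CAC_F, adjusted p = 0.119). Cry1 was at 38.8 ± 4.32 CPM in CAC_FP and 33.4 ± 5.08 CPM in CAC_F, against 16.5 ± 2.14 CPM in CAC (SD, n = 5 each).

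**Figure D4:**
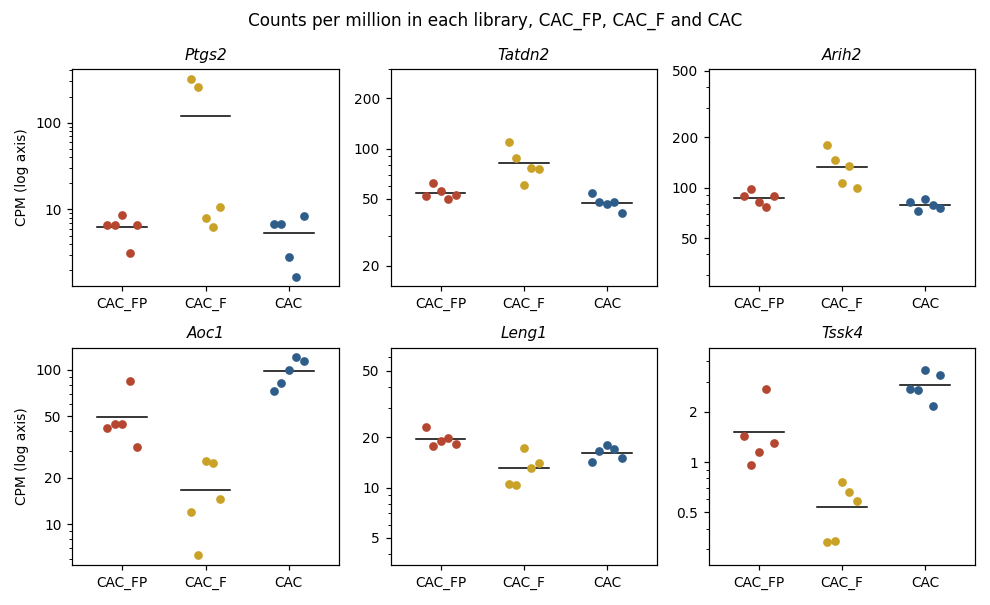
CPM (log axes) of 6 of the genes with the smallest unadjusted p between CAC_FP and CAC_F, in each library of CAC_FP, CAC_F and CAC from left to right, with a bar at the group mean. None passed the adjustment (adjusted p = 0.119), and the high Ptgs2 values belong to CAC_F replicates 1 and 2, at 321 and 254 CPM.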

How the data were processed

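Trizol RNA and dUTP-stranded mRNA libraries were used, per the labels' protocols. The authors deposited raw read counts for 39971 genes and, beside them, FPKM values that they computed. Per the submitters' processing notes the tools were cutadapt 1.9, FastQC and HISAT2. What each did, how reads were counted and the genome build are details not given in these sources. FPKM served only to choose the 15080 genes tested. Values of near-identical gene copies are uncertain, since reads that fit several copies may be counted at each.

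TMM-scaled counts were fitted with edgeR 4.0.16 (quasi-likelihood test, R 4.3.3), with 1 coefficient for each of the 5 groups over all 27 libraries. P-values were two-sided and adjusted over all genes tested (Benjamini-Hochberg, threshold 0.05). SE was derived as |log2 fold change| divided by the root of the F statistic. CPM use TMM-scaled libraries. Against a group at 0, folds are bounds from 3 counts in the whole group. Alternatives were testing unfiltered genes or those averaging 5 FPKM or more, median-ratio size factors, DESeq2 1.42.0, limma 3.58.1 (voom, weighted libraries), fitting CAC_FP and its comparator alone, a replicate block, smooth muscle or adipocyte covariates, and leaving out each library. The fitting was tested on simulated counts.

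The members and the 45 gene lists were chosen with earlier results of these data known. Named genes are the 10 largest and the 10 smallest-p changes in each direction among non-overlapping called genes of at least 2-fold (predicted genes and antigen receptor segments left out), up to 4 called members per list (2 with the smallest p where none was called), the 5 smallest p in each direction between CAC_FP and CAC_F, and 13 genes taken regardless. Mcm3, Mcm5, Cdt1, Mdm2, Gdf15, Tyms, Hmox1, Reg3g, Gsdmd, Isg15 and Nfil3 were added after their values were seen. Of the 15080 genes, 10320 matched a RefSeq promoter. One named gene is not reported here.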

Additional observations from a re-analysis of the deposited data

Results flagged for a closer look

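In 13 of 80 sets of 5 libraries checked, 1 library stood apart from the other 4 in log2 CPM by Dixon's test. For continuous values chance gives this in about 1 in 20 such sets. That rate does not hold where the other 4 libraries had no counts, since any read then sets a library apart. This was so for Reg3d, Spink6, Dynap and Krt6a in CAC and for Hbb-bt in CAC_FP. The flagged genes were also chosen for their differences in these same data, so 13 of 80 cannot be judged against that rate. The values below are in CPM, and their cause was not tested.

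Among CAC_FP libraries, replicate 4 was low for Prss22, at 2.562 against 16.28 to 25.25 in the others. Replicate 2 was high for the protease inhibitor Spink6, at 6.814 against 0.8771 to 1.614, and for Krt6a, at 3.002 against 0.2645 to 0.6459. Replicate 3 was low for Optc, at 0.2307 against 1.053 to 1.477. Replicate 4 was the single library whose Hbb-bt stood apart, at 0.04177, with the others at 0.

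Among CAC libraries, replicate 2 was high for Mptx2, at 169.1 against 38.36 to 56.9, and was the single one above 0 for Spink6, at 0.2256, and for Dynap, at 0.06636. Replicate 3 was high for Gnat3, at 1.885 against 0.732 to 0.8708, and the single one above 0 for Krt6a, at 0.1168. Replicate 1 was the single one above 0 for Reg3d, at 0.0305. Replicate 4 was low for Tmcc3, at 78.29 against 100.1 to 104.7, and replicate 5 high for Plk3, at 18.5 against 13.79 to 14.74.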

How the results depend on the processing

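For CAC_FP against CAC, 2802 genes were called, 1460 higher and 1342 lower. Voom with library weights called 5187 (2625 higher, 2562 lower), and the smooth muscle covariate left 1575 (808 higher, 767 lower), 52 of them with the sign turned round. Without a filter 735 genes were lower, and with a mean FPKM of at least 5 the number was 870. With each library left out in turn the calls were 1515 to 3448, 815 to 1911 higher and 604 to 1537 lower. The other alternatives, among them DESeq2, median-ratio size factors and the adipocyte covariate chosen after seeing the data (2762 calls), stayed within 1.5 times of the 3 counts. The replicate block called 1545 (907 higher, 638 lower); same-numbered libraries correlated at -0.201 to 0.31 in their deviations from the group means, and not every library matched its own number best, so the numbers were not taken as pairs.

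For CAC_FP against CAC_F the count of 0 became 38 (15 higher, 23 lower) with voom and 238 (118 higher, 120 lower) with DESeq2. Leaving out 1 library gave 0 to 616 calls, 0 to 365 higher and 0 to 251 lower. The replicate block gave 0.

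Over the 19 alternatives, 90 of 168 named genes called in CAC_FP against CAC kept their call in each one that tested them. Some of these genes were tested in 18 of the 19. S100a8 turned to 3.617 with voom, against -0.21. The causes of these changes were not tested. What depth limits was not tested.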
